A study of Mus musculus with 47 samples.

Results

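The transcriptome of the unmodified cerebral cortex was described from 8 wild-type libraries, the only ones of 47 in the series whose titles name wild-type cortex, and no genotype was compared with another. The 8 mice were of C57BL background, carried no engineered allele by their labels, and were 6 months old. They comprised 4 females and 4 males, and each library was taken as 1 mouse because the titles number them within sex. Cortex was dissected, RNA was extracted with a Qiagen RNeasy column kit, and strand-specific libraries were made with the Illumina TruSeq protocol. In the series these mice are the reference for animals with altered Ccdc82, alone or together with a Huntington's disease allele of Htt.

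The cerebral cortex is built from excitatory neurons that release glutamate, inhibitory interneurons that release GABA, and astrocytes, oligodendrocytes, microglia and vascular cells that support them. A bulk RNA library averages over all of these cells, and fewer cells of a type and less RNA per cell cannot be told apart in it. Immediate early genes, which encode mostly transcription factors switched on within minutes of neuronal activity, are a further component that follows what the animal was doing before death.

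Levels are given as FPKM, counts scaled to the library total and to the length of the gene model, so that genes of different length can be set beside each other. Library totals lay between 49334720 and 58920165 counts. A gene was counted as present at a mean of 1 FPKM or more over the 8 mice, which corresponded to a median of 136 counts per library for genes near that level. Spearman correlations between libraries over the genes present lay between 0.986 and 0.996. The Xist and Y-linked transcripts matched the labelled sex in every library.

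By this threshold 13674 of 48795 genes were present. Of the 21772 protein-coding genes, 11812 (54.3%) were present. At least 1 count was found for 29782 genes in some mouse and for 20934 genes in all 8. Raising the level narrowed the set quickly: 5214 genes reached 10 FPKM, 313 reached 100 FPKM and 10 reached 1000 FPKM. Among genes present, 12968 were at or above 1 FPKM in every mouse. The 100 most abundant genes held 25.5% ± 0.284 (SD, n = 8) of the summed FPKM, and 813 genes held 50% of it.

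**Figure D1:**
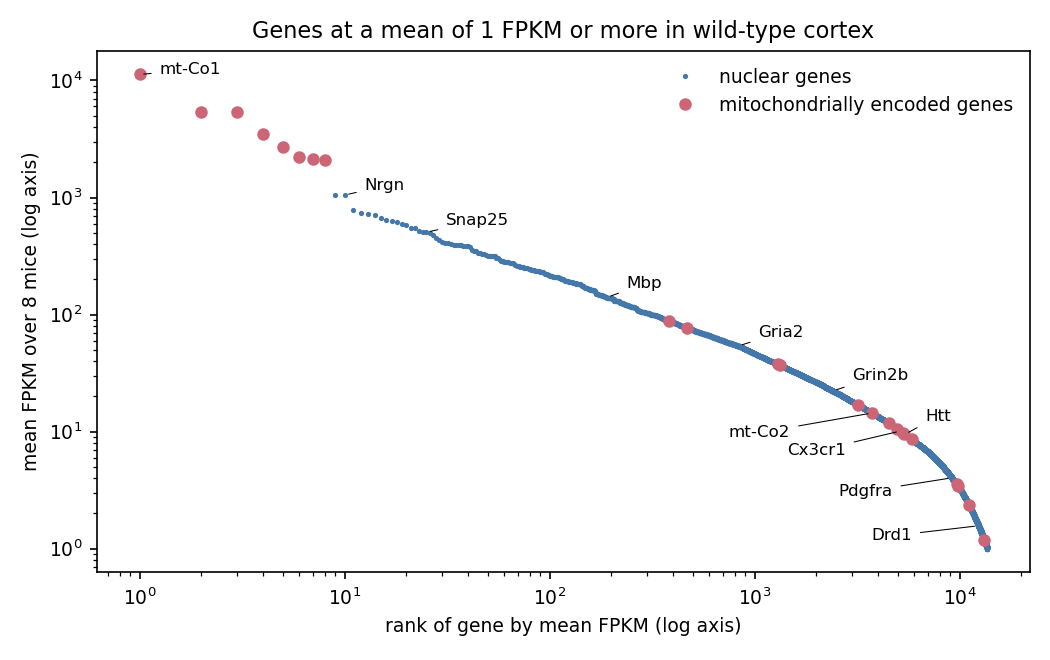
Genes at a mean of 1 FPKM or more in 8 wild-type mice, ordered by mean FPKM (vertical log axis) against their rank (horizontal log axis), with mitochondrially encoded genes in red and nuclear genes in blue. The 8 genes at the top are mitochondrially encoded, Nrgn stands 10th, and mt-Co2 falls among nuclear genes of moderate level.

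Transcripts of the mitochondrial genome, which encodes core subunits of the respiratory chain and the RNAs of the mitochondrial ribosome, headed the list. The 8 most abundant genes were all mitochondrially encoded, and mitochondrial genes together held 13.0% ± 0.199 (SD, n = 8) of the summed FPKM but 4.53% ± 0.0834 of the counts, which are not divided by gene length. mt-Co1, a catalytic subunit of cytochrome c oxidase, was the most abundant gene at 11256 ± 396 FPKM. It was followed by mt-Cytb at 5398 ± 123 FPKM and mt-Nd1 at 5363 ± 206 FPKM, subunits of complexes III and I. The 2 ribosomal RNAs were lower than these, with mt-Rnr1 at 2696 FPKM and mt-Rnr2 at 2145 FPKM.

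The 13 protein-coding genes of the mitochondrial genome did not lie at similar levels. The 6 genes mt-Co1, mt-Cytb, mt-Nd1, mt-Nd2, mt-Nd5 and mt-Nd4 lay between 2097 and 11256 FPKM, and the other 7 between 2.36 and 76.7 FPKM. mt-Co2, which encodes another catalytic subunit of the same oxidase as mt-Co1, was at 14.4 ± 1.62 FPKM. The sequence of mt-Co2 and of its copy Gm28661, an unprocessed pseudogene on chromosome 1, is shown because the pair bears on this value: over the 681 bases that can be compared in the GENCODE M21 transcripts (GRCm38), 0 differ. The first 90 bases of both transcripts, from M:7013-7102 on the plus strand and chr1:24615476-24615565 on the minus strand, read as follows, in lower case throughout because no base differs.
mt-Co2: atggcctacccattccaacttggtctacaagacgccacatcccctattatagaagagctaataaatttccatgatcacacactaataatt
Gm28661: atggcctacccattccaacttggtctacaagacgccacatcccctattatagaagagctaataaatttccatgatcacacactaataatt

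A read of such a stretch fits both places equally well. To measure this, every 50-base word of a gene's annotated transcripts was looked up in the transcripts of all other genes. For mt-Co2, 100% of its words occurred in another gene, and the shares were 99.9% for mt-Co3, 99.5% for mt-Atp6, 98.8% for mt-Nd4l and 98.0% for mt-Nd3. These 5 genes lay between 2.36 and 14.4 FPKM, and their best-matching copies, all on chromosome 1 between 24612407 and 24615565, lay between 4.68 and 40.5 FPKM. mt-Co1 and mt-Nd4 shared 51.1% and 62.2% of their words and were still at 11256 and 2097 FPKM. With annotated transcripts of other genes, mt-Atp8 (16.9 ± 3.37 FPKM) and mt-Nd6 (76.7 ± 8.88 FPKM, the protein gene of the mitochondrial genome encoded on the other strand) shared 0%. A copy without an annotated transcript would not be seen by this measure. mt-Atp8 (M:7766-7969) starts between mt-Co2 and mt-Atp6, whose copies Gm28661 and Gm10925 are neighbours on chromosome 1. Its 0% therefore does not show that its sequence is unique. The sources used here do not say how reads with several matching places were counted, and the part of shared words in these levels was not tested.

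**Figure D2:**
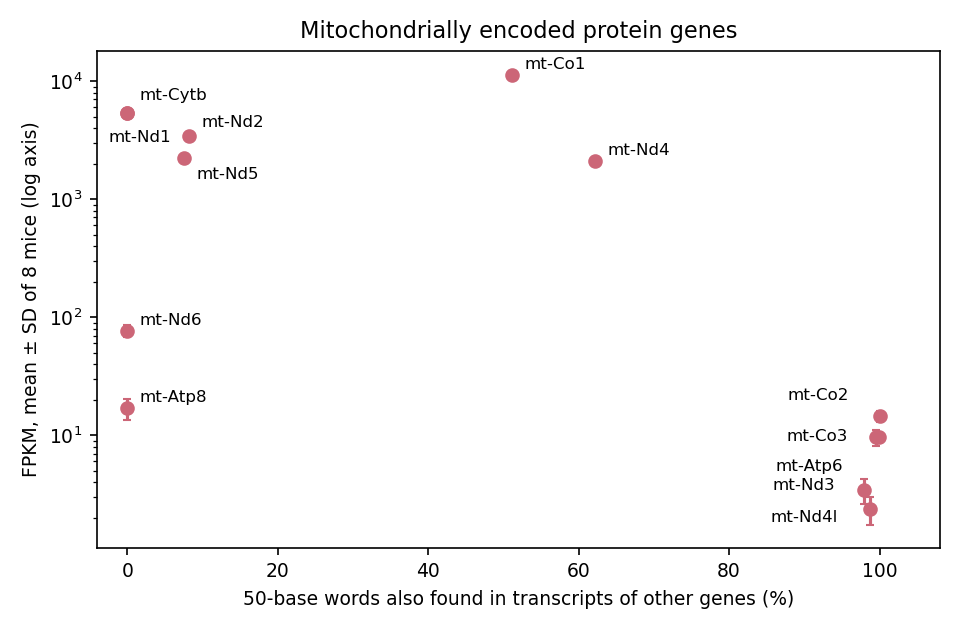
Level of the 13 mitochondrially encoded protein genes (mean and SD of 8 mice, vertical log axis) against the share of their 50-base words that also occur in transcripts of other genes (horizontal axis, percent). The 5 genes at 98.0% to 100% all lie at or under 14.4 FPKM, and the genes above 2000 FPKM lie at 62.2% or less.

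The same measure marked other familiar abundant genes. The 82 cytosolic ribosomal protein genes, which in most tissues are among the most abundant transcripts, had a median of 7.13 FPKM beside 7.01 FPKM over all genes present. They ranged up to 250 FPKM for Rplp1 and 240 FPKM for Rpl4. Their median share of words found elsewhere was 23.6%, against 0.463% over protein-coding genes present. The median level was 9.87 FPKM for the 16 genes with under 10% of their words shared, 5.27 FPKM for the 29 with 10% to under 25%, and 9.34 FPKM for the other 37, so levels did not follow the share in order. Pseudogenes named after a ribosomal protein gene, of which 47 were present, summed to 1821.9 FPKM. The 82 ribosomal protein genes themselves summed to 1996.5 FPKM. How reads were divided between these genes and their copies was not tested. Gapdh, a glycolytic enzyme often used as a loading reference, was at only 4.14 ± 0.333 FPKM. Its deposited length was 4133 bases and 25.1% of its words were shared. The part of length and of shared words in this level was not tested. Processed pseudogenes, copies of spliced messages inserted elsewhere in the genome, made up 757 of the genes present and 5.84% of the summed FPKM. The highest of them, Gm11223 (chromosome 4), reached 514 ± 17.3 FPKM with 87.5% of its words shared, so that its counts cannot be assigned to that locus alone.

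The most abundant nuclear genes had diverse roles. Fth1, the heavy chain of the iron store ferritin, was at 1054 ± 56.3 FPKM, and the individual mice lay between 988 and 1142 with a median of 1043. Nrgn (chromosome 9, 37544492 to 37552904, GRCm38), a postsynaptic protein that holds calmodulin in excitatory neurons, was at 1049 ± 44.4 FPKM, between 993 and 1104 in single mice. The calmodulin genes Calm2 and Calm3 were among the 16 most abundant genes, at 789 ± 26.98 FPKM and 637 ± 26.6 FPKM. Their target kinase Camk2a and its inhibitor Camk2n1 were at 585 ± 15.2 and 619 ± 24.7 FPKM. Over the 8 mice these 5 genes varied little beside their level, and no mouse stood apart.

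Further genes of the top 30 encode the matricellular protein Sparcl1 (721 ± 21.8 FPKM), brain creatine kinase Ckb (703 ± 28.7 FPKM), the amyloid precursor App (673 ± 18.2 FPKM), the axonal transport motor Kif5a (590 ± 21.7 FPKM), the sodium pump subunit Atp1b1 (552 ± 18.8 FPKM) and the vesicle fusion protein Snap25 (504 ± 21.7 FPKM). Gene models bear on such levels: the deposited length of App was 3128 bases, against 12996 bases for all of its exons in GENCODE M21, and 662 genes present had an M21 length over 2 times the deposited one. Without division by length, the long noncoding RNA Meg3, silent on the paternal chromosome, rose to the 4th place at 4960 CPM (counts scaled to the library total only), while by FPKM it stood 66th at 274 ± 19.3. Only 19 of the 30 most abundant genes by FPKM were among the 30 by CPM. Very short features can also stand high: Gm23935, a 57-base gene on chromosome 16 annotated as a microRNA, was at 626 ± 321 FPKM from a mean of 1867 counts, and 100% of its words occur elsewhere.

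Of the 23 lists of cell type or region markers, that of general neuronal markers had the highest median. All 15 general neuronal markers were above 10 FPKM, with a median of 162 FPKM beside 7.01 over all genes present, from Snap25 and Thy1 (378 FPKM) down to the heavy neurofilament Nefh (26.3 FPKM). The 10 excitatory markers had a median of 53.6 FPKM. The cortical vesicular glutamate transporter Slc17a7 (chromosome 7) was at 223 ± 10.3 FPKM, with mice between 205 and 235, and Slc17a6, the form used by thalamic neurons, was at 7.27 ± 0.885 FPKM. Within every mouse Slc17a7 was the higher of the pair, by 4.94 ± 0.220 on the log2 scale (SD, n = 8; two-sided exact permutation of signs over mice, p = 0.00781, the smallest this design allows, 0.00801 after adjustment over 40 gene pairs). Upper layer markers had a median of 14.6 FPKM, led by Lamp5 (121 FPKM) and Rasgrf2 (37.5 FPKM), and deep layer markers 5.58 FPKM, led by Parm1 (18.3 FPKM) and the corticospinal determinant Fezf2 (12.3 FPKM). Foxp2 (0.210 FPKM) and Nxph4 (0.135 FPKM) were the deep layer markers under 1 FPKM.

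Interneuron markers, with 17 of 19 present, were led by neuropeptides. Cck was at 347 ± 14.5 FPKM, Sst at 183 ± 13.0, Npy at 102 ± 3.32 and Vip at 32.3 ± 4.63. The calcium buffer Pvalb, which marks the fast-spiking class, was at 53.5 ± 6.04 FPKM, and lay between 41.1 and 58.7 in single mice. The GABA-synthesising enzymes were at 57.3 ± 3.25 FPKM for Gad1 and 29.8 ± 1.45 FPKM for Gad2, and Gad1 was higher in 8 of 8 mice by 0.94 ± 0.10 on the log2 scale (same exact permutation, adjusted p = 0.00801). Cck is also made by excitatory neurons, so its level is not that of interneurons alone. Nkx2-1, the embryonic determinant of the ventral forebrain where these cells are born, had 9 counts in all 8 libraries together.

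**Figure D3:**
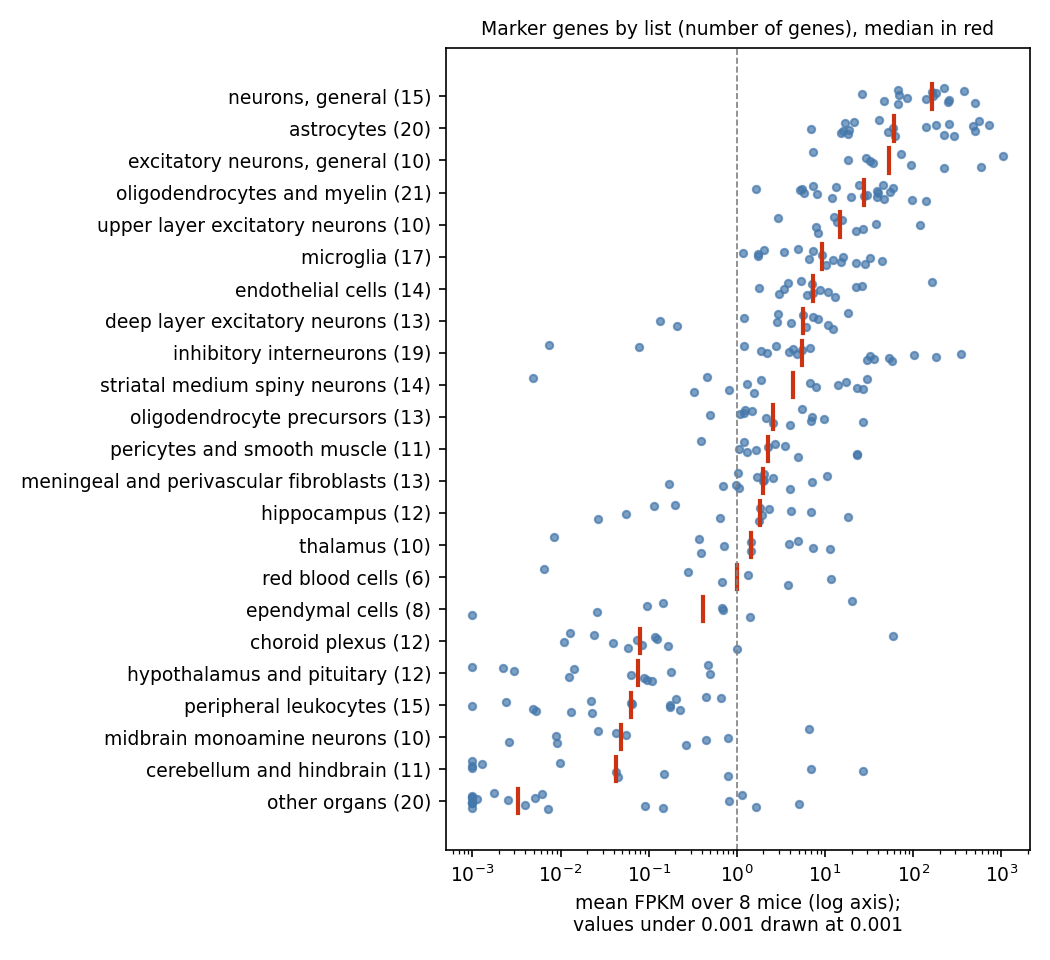
Mean FPKM over 8 mice of each gene (blue points, log axis) in 23 lists of cell type or region markers, ordered by the median of the list (red lines), with the number of genes in brackets and a dashed line at 1 FPKM. Lists of general neuronal markers, astrocytes and general excitatory markers lie highest. Lists of choroid plexus, hypothalamus, leukocytes, hindbrain and other organs have medians under 0.1 FPKM.

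Of the glia, astrocyte markers were the most abundant, with a median of 61.1 FPKM and 20 of 20 genes present. Sparcl1, the processing enzyme Cpe (554 ± 20.2 FPKM), glutamine synthetase Glul (498 ± 18.9 FPKM) and the lipid carrier Apoe (476 ± 26.5 FPKM) led the list, of which Cpe is also used by neurons. The structural protein Gfap stood far lower, at 15.3 ± 1.69 FPKM, and the water channel Aqp4 at 18.0 ± 1.65 FPKM. The glial glutamate transporter Slc1a2 (286 ± 17.3 FPKM) exceeded Slc1a3 (62.8 ± 4.70 FPKM) in 8 of 8 mice, by 2.19 on the log2 scale and by 2.81 in CPM. Of the oligodendrocyte and myelin list 21 of 21 were present with a median of 27.6 FPKM, led by Mbp (140 ± 18.5 FPKM), which encodes a structural protein of compact myelin. Precursors of these cells were represented by a median of 2.58 FPKM, from Olig1 (26.8 FPKM) to Enpp6 (0.490 FPKM).

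Microglia, the resident immune cells, contributed 17 of 17 markers at a median of 9.30 FPKM. The lysosomal protease Ctss was at 32.2 FPKM and the complement chains C1qa and C1qb at 28.7 and 22.4 FPKM. The purine receptor P2ry12 was at 12.4 ± 1.06 FPKM and the fractalkine receptor Cx3cr1 at 10.1 ± 0.658 FPKM. By contrast no marker of circulating or perivascular leukocytes reached 1 FPKM. The highest of those 15 was the macrophage receptor Mrc1 at 0.662 ± 0.152 FPKM, and the T-cell gene Cd3e was at 0.0228 FPKM. Endothelial markers had a median of 7.26 FPKM. They were led by Bsg (163 FPKM), which other cells express as well, the glucose transporter Slc2a1 (26.3 FPKM) and Itm2a (22.6 FPKM). The tight junction protein Cldn5 was at 13.0 ± 1.77 FPKM. Pericyte and smooth muscle markers had a median of 2.23 FPKM and meningeal fibroblast markers 1.95 FPKM.

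Lists for tissue next to the cortex ranged from near 0 to low levels. Choroid plexus genes had a median of 0.0791 FPKM, and the 1 member above 1 FPKM was Enpp2 (59.3 FPKM), which is also in the oligodendrocyte list. Ttr, the main secreted protein of the choroid plexus, was at 0.993 ± 0.861 FPKM, between 0.209 in female 3 and 2.52 in male 1. Genes of the hypothalamus and pituitary had a median of 0.0759 FPKM with 0 of 12 present, and Tshb had 0 counts in the 422461653 counts of the 8 libraries, which allows up to 0.00710 FPKM for a gene of 1 kilobase. Of the thalamic list 6 of 10 genes were present with a median of 1.46 FPKM, led by the nuclear receptor Rora (11.5 FPKM), while the thalamic transcription factors Tcf7l2 (0.392 ± 0.0246 FPKM) and Gbx2 (8 counts in all) were under 1 FPKM. Of the hippocampal list 7 of 12 were present with a median of 1.82 FPKM, led by Wfs1, a protein of the endoplasmic reticulum, at 18.0 FPKM. The cortex also uses several genes of both lists.

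Striatal markers were mixed. The signalling genes Rasd2 (29.9 FPKM), Ppp1r1b (26.6 FPKM), Penk (22.8 FPKM) and Adcy5 (17.5 FPKM), which cortical neurons also use, were well above 1 FPKM. The dopamine receptors that separate the 2 classes of striatal output neuron were at 1.57 ± 0.165 FPKM for Drd1 and 0.323 ± 0.0728 FPKM for Drd2, and the striatal factor Six3 had 11 counts in all. For cerebellum and hindbrain the median was 0.0422 FPKM, and it ran from 0.00836 to 0.0482 FPKM under the other settings. The 2 members present were Calb1 (26.9 FPKM), which is also an upper layer marker, and Neurod1 (6.94 FPKM), which is also in the hippocampal list. In the list of other organs 15 of 20 genes were under 0.1 FPKM, and the highest was Acta1, skeletal muscle actin, at 5.09 ± 0.466 FPKM.

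Several large gene families were almost undetected. Of 1389 odorant receptor genes, 1277 had no count in any mouse and 4 reached 1 FPKM, the highest being Olfr316 at 1.81 ± 0.139 FPKM, between 1.68 and 2.06 in single mice. Vomeronasal receptors had 1 of 332 genes present, Vmn2r84 at 1.22 FPKM, and taste receptors 0 of 43. Of the 39 Hox genes, which pattern the trunk and hindbrain, 31 had no count and none reached 0.1 FPKM. Among Pax factors, 0 of 9 were present, and Pax6, used in cortical progenitors before birth, was at 0.593 ± 0.0844 FPKM. The forebrain factor Lhx2 was present at 14.9 ± 1.59 FPKM.

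Some members broke with their family. Of 54 keratins, 6 were present, among them Krt222 at 20.4 ± 1.75 FPKM and Krt12, known from the cornea, at 9.45 ± 1.07 FPKM, with mice between 7.55 and 10.9. Krt12 shared 42.0% of its words with other genes. Cytochrome P450 genes were present in 15 of 93 cases, and Cyp46a1, the neuronal enzyme that turns over brain cholesterol, exceeded all others at 98.9 ± 2.36 FPKM, with the next, Cyp2d22, at 10.04 FPKM. Families used in wiring were broadly present, with 18 of 20 semaphorins, led by Sema7a (95.8 FPKM), 18 of 22 ephrins and Eph receptors, led by Ephb6 (41.1 FPKM), and 43 of 59 clustered protocadherins, led by Pcdhgc5 (19.5 FPKM).

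Glutamate receptors were dominated by a few subunits. The 4 AMPA receptor genes, which carry fast excitation, were ordered Gria2 (53.9 ± 1.64 FPKM), Gria1 (47.8 ± 1.07), Gria3 (27.5 ± 1.0004) and Gria4 (23.8 ± 0.603). Gria2, whose subunit makes the channel impermeable to calcium, lay between 50.4 and 56.0 in single mice, and Gria1 between 46.0 and 49.1, so that the ranges did not overlap. The difference was 0.17 ± 0.05 on the log2 scale and held in 8 of 8 mice (exact permutation of signs, adjusted p = 0.00801). In CPM it was 1.53, Gria2 having the longer gene model. Of the auxiliary subunits the most abundant were Cacng7 (79.1 FPKM) and Cnih2 (65.0 FPKM). Among NMDA receptor genes the obligatory Grin1 was at 77.4 ± 2.97 FPKM, and Grin2b (22.2 ± 2.20) exceeded Grin2a (14.3 ± 1.12) in 8 of 8 mice by 0.64 ± 0.07 on the log2 scale (adjusted p = 0.00801, same exact test). Grik5 (37.8 FPKM) led the kainate receptors and Grm3 (21.1 FPKM) the metabotropic ones, while Grm6, the receptor of retinal bipolar cells, was at 0.00307 FPKM.

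Inhibitory receptors showed the same uneven use. Of 19 GABA-A subunit genes 12 were present, among them Gabra3 (38.4 FPKM), Gabrd (28.2 FPKM), which forms receptors outside the synapse, and Gabra2 (6.74 ± 1.18 FPKM). The cerebellar subunit Gabra6 was at 0.0422 FPKM. Gabbr1 (107 ± 1.49 FPKM) and Gabbr2 (65.2 ± 2.31 FPKM), which together form the metabotropic GABA-B receptor, were among the most abundant receptor genes. Glrb, the shared glycine receptor subunit, was at 61.1 FPKM while the alpha subunits were at or under 1.345 FPKM.

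**Figure D4:**
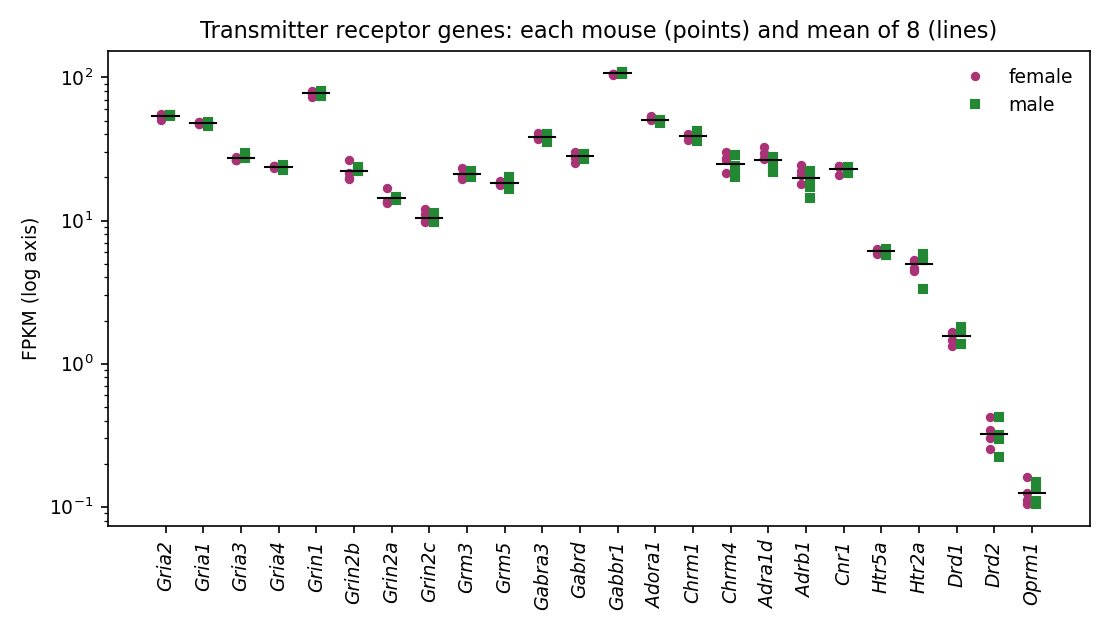
FPKM (log axis) of 24 transmitter receptor genes in each of 4 female and 4 male mice, with lines at the mean of 8. Gabbr1 and Grin1 are the highest drawn, at 107 and 77.4 FPKM, serotonin receptors lie near 5, and Drd2 and Oprm1 lie under 1 FPKM.

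Receptors of the modulatory transmitters covered a wide range, and the highest, Adora1 and Chrm1, lay within the range of the AMPA receptor genes. None of the 14 serotonin receptors reached 10 FPKM, and the highest were Htr5a (6.08 ± 0.251 FPKM) and Htr2a (4.97 ± 0.801 FPKM). Of the adrenergic receptors Adra1d (26.5 ± 3.70 FPKM) and Adrb1 (19.9 ± 3.22 FPKM) stood out. Muscarinic receptors were led by Chrm1 (39.3 ± 2.19 FPKM), and nicotinic ones by Chrnb2 (7.51 FPKM) and Chrna4 (6.56 FPKM), the 2 partners of the main brain form. The adenosine receptor Adora1 was at 50.7 ± 1.92 FPKM and the cannabinoid receptor Cnr1 at 22.8 ± 1.26 FPKM. Opioid receptors differed widely: Oprl1 was at 9.48 FPKM, Oprd1 at 8.00 FPKM, Oprk1 at 0.157 FPKM and Oprm1 at 0.125 ± 0.0217 FPKM. The transporters that take up serotonin (Slc6a4), dopamine (Slc6a3) and noradrenaline (Slc6a2) mark neurons of the brainstem, and in the cortex they were at 0.00258, 0.00903 and 0.00118 FPKM.

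Of the sodium channel genes, the pore-forming Scn8a (38.2 FPKM), Scn2a1 (34.5 ± 1.01 FPKM) and Scn1a (32.2 ± 2.49 FPKM) were close, and Scn2a1 exceeded Scn1a in 8 of 8 mice by 0.10 on the log2 scale, with an SD of 0.13 between mice (adjusted p = 0.00801, same exact test). Without male 1, where Scn1a was lowest, the difference was 0.06. The peripheral nerve channels Scn9a (0.0470 FPKM) and Scn10a (0.0365 FPKM) were low. Hcn2, which carries a current activated by hyperpolarization, was at 46.4 ± 3.15 FPKM. Potassium channel genes were present in 23 of 25 cases, among them Kcnh3 (53.4 FPKM).

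Within mice 40 pairs of genes were compared, mainly related genes but also marker genes such as Sst and Vip. The same gene was higher in all 8 mice in 39 pairs. In 40 of 40 pairs the adjusted p was under 0.05, which says only that differences between genes were larger than their spread between mice. Large differences were found for Vamp2 over Vamp1 (9.63-fold), Ntrk2 over Ntrk3 (8.16-fold) and Eno2, the neuronal enolase, over Eno1 (6.62-fold). In CPM, which leaves out gene length, the log2 difference fell from 3.27 to 1.85 for Vamp2 over Vamp1 and from 3.03 to 1.90 for Ntrk2 over Ntrk3. For Fth1 over Ftl1 (19.3-fold) and Actb over Actg1 (8.14-fold), 58.4% and 37.4% of the words of the lower gene occur elsewhere, so that these ratios are uncertain. The ratio of Eno2 over Eno1 has the same limit, with 26.0% of the words of Eno1 found elsewhere. For Fth1 over Ftl1 the log2 difference was 4.27, and 3.64 in CPM. Where genes differ in length the order rests on the length scaling: in CPM, 5 pairs reversed, including Calm3 over Calm2 and Cx3cr1 over P2ry12.

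Genes of neurodegenerative disease were present in 21 of 22 cases, all but the ubiquitin ligase Park2 (0.785 FPKM). Htt (chromosome 5, 34761740 to 34912534), the Huntington's disease gene, was at 9.51 ± 0.311 FPKM, with mice between 8.95 and 9.85. Ccdc82 (chromosome 9, 13246955 to 13292520), the other gene of the series, was at 8.76 ± 0.836 FPKM, between 7.70 in female 4 and 10.3 in male 1. Both lay close to the median of all genes present. App, Apoe and Prnp (282 ± 12.5 FPKM) were the most abundant of the list.

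Between mice most genes varied little. The coefficient of variation (CV), the SD as a percentage of the mean, had a median of 6.41% over genes present, where counting alone would give 2.67%. The steadiest gene was Senp2, a protease for the small modifier SUMO, with a CV of 0.676% where counting alone would give 1.24%, followed by Wsb2, Fam168b and Rab10. Of the 20 genes with the highest CV, 11 were microRNA precursors and 10 had fewer than 20 counts on average. Mir132 was among the precursors, and the others were genes of the sex chromosomes, hemoglobins and Btg2.

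Immediate early genes set male 1 apart. This mouse had the highest value for 17 of 21 genes of the list, where it held the highest value for 15.7% of all genes present, and male 3 had the lowest value for 15 of 21, against 12.2%. Fos, the classical activity marker, was at 75.1 FPKM in male 1, and the other mice lay between 18.7 and 40.5. The CV of the summed list was 28.3%, and 19.7% without male 1. Npas4, an activity-dependent transcription factor found mainly in neurons, was at 42.1 FPKM in male 1 and between 10.7 and 16.1 in the others. Btg2, an antiproliferative gene of the same kind, was at 45.7 FPKM in male 1 and between 6.47 and 15.4 elsewhere. For Arc, a synaptic protein, the range was wide without a gap, from 101 FPKM in male 3 to 290 FPKM in male 1 with a median of 210.

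The microRNA genes Mir132 and Mir212 were also highest in male 1, at 40.5 and 53.8 FPKM in male 1 and between 6.89 and 19.4 FPKM in the other 7 mice. Their hairpins lie side by side on chromosome 11 (75173388 to 75173478 for Mir212 and 75173682 to 75173747 for Mir132), inside the noncoding gene 1700016P03Rik (75172560 to 75177633, GRCm38), which was at 49.8 FPKM in male 1 and between 13.9 and 25.2 FPKM in the others. These values count longer RNA passing through the locus, not the mature microRNA. The mature forms (RefSeq, GRCm38.p6; chr11:75173723-75173744 and chr11:75173443-75173464, plus strand) are shown because they share their seed, bases 2 to 8, which is in capitals.
miR-132-3p: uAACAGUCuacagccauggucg
miR-212-3p: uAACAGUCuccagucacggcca

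The promoters of the 3 genes described above are shown because activity-dependent genes often carry sites for the factor CREB, whose full site is TGACGTCA and whose short site is TGACG. They cover the 250 bases before the start of transcription (RefSeq, GRCm38.p6), with either site, on either strand, in capitals; every full site also holds the short one. The regions are chr1:134079156-134079405 on the minus strand for Btg2, chr19:4989972-4990221 on the minus strand for Npas4 and chr12:85473640-85473889 on the plus strand for Fos.
Btg2: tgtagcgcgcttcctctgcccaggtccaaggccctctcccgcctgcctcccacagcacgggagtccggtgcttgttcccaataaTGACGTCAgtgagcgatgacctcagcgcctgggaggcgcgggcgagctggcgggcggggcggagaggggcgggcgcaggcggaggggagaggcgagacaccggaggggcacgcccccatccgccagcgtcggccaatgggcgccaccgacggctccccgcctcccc
Npas4: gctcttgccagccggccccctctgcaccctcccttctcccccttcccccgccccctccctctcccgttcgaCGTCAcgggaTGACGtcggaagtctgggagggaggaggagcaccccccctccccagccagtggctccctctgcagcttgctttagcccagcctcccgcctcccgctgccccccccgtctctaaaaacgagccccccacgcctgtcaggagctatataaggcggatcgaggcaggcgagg
Fos: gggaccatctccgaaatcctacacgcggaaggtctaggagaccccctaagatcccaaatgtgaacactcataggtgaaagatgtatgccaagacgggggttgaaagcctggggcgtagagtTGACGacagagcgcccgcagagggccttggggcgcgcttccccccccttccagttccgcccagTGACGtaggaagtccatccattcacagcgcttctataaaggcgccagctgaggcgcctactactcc

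Of the 21 immediate early genes, 17 had a promoter in the table. The short site was found in 14 of these 17 genes (82.4%), and in 31.4% of the genes present that had a promoter. The full site was found in Btg2 and Dusp1, 2 of 17 genes (11.8%), against 3.20%. As shares of windows of 250 bases, 58.6% of 29 immediate early promoters held the short site, against 26.6% of 12147 promoters of genes present and 17.8% of all 32851 promoters. A match is a description of letters and not evidence of binding.

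Red blood cell genes moved the other way. Hbb-bs, the major adult beta globin, was at 0.355 FPKM in male 1, between 4.35 and 7.89 FPKM in the 4 females, and between 17.2 and 26.2 FPKM in males 2 to 4. The alpha globin Hba-a1 and the erythroid enzyme Alas2 were likewise lowest in male 1 and highest in males 2 to 4. Hbb-bs and Hba-a1 shared 53.2% and 72.3% of their words with other genes, so that single hemoglobin genes are uncertain. Males 2 to 4 are the 3 libraries in column 2 of the well plate by their labels, and no female library stood in that column. Across the 8 mice the log2 hemoglobin sum and the mean log2 level of the immediate early genes were inversely related (Pearson's r = -0.86, exact permutation p = 0.0127; Spearman's rho = -0.69, p = 0.0694), with adjusted p of 0.0380 and 0.208 over 3 relations computed after the values were seen. Without male 1 and male 3, r was -0.27, so the relation rested on those mice, and with only 4 mice of each sex it was not computed within a sex.

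**Figure D5:**
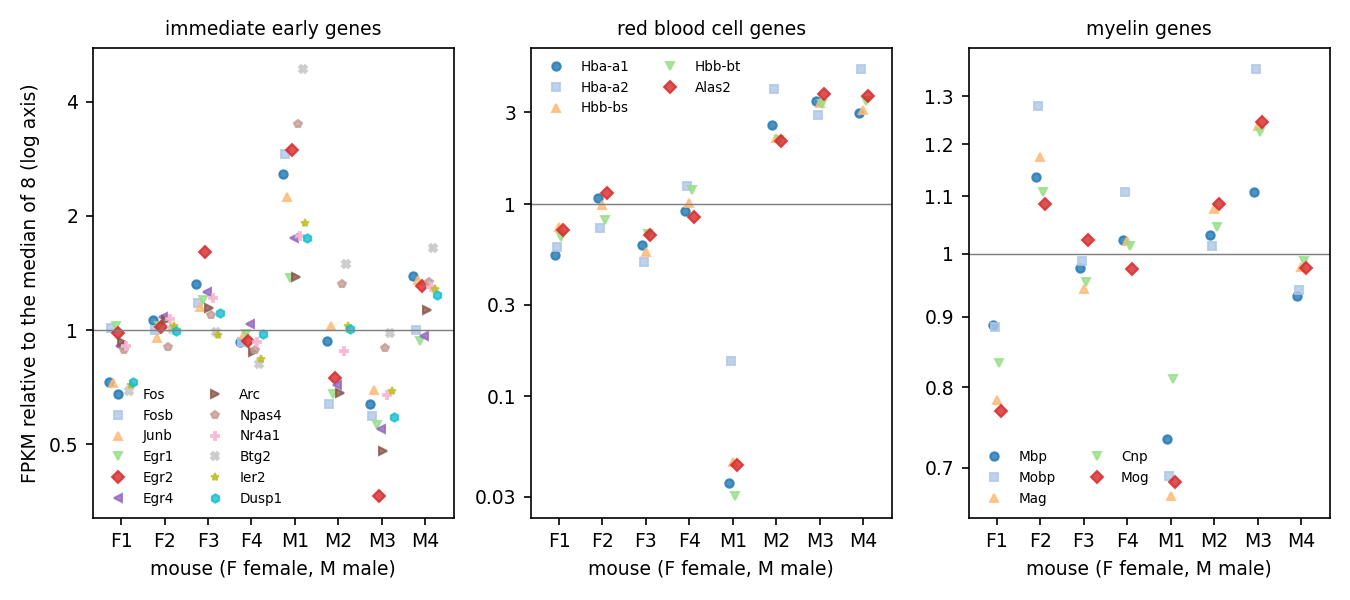
FPKM relative to the median of the 8 mice (vertical log axes, scaled separately) for 12 immediate early genes, 5 red blood cell genes and 5 myelin genes, by mouse, with a grey line at the median. Male 1 is the highest for most immediate early genes and the lowest for red blood cell and myelin genes shown.

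Myelin genes varied less but in concert. Male 1 had the lowest value for 18 of 21 oligodendrocyte and myelin genes, against 15.1% of all genes present. Mbp was at 105 FPKM in male 1, between 127 and 163 in the others, and Mobp, another structural myelin protein, at 31.5 FPKM in male 1 and up to 62.03 FPKM in male 3. The sum of the list ranged from 573 to 823 FPKM, a CV of 11.6% (8.49% without male 1), where the sum of general neuronal markers had a CV of 3.11%. Meningeal fibroblast genes had a CV of 20.8% in sum, from 27.3 FPKM in female 2 to 44.9 FPKM in male 1. The part of plate column or of single mice in these values was not tested.

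Few genes were called between female and male cortex in the main comparison, but the number depended on the setting. Of 18393 genes tested, 40 (0.217%) were called (edgeR quasi-likelihood test, Benjamini-Hochberg adjusted p under 0.05). Of these, 20 (0.109%) were higher in females and 20 (0.109%) in males. Of all genes tested, 2183 had an unadjusted p under 0.05. Calls higher in females and in males were 261 and 158 without male 1, and 143 and 115 with DESeq2. With the number of the plate column as a linear term they were 3 and 5. Xist, the RNA that silences one X chromosome, was between 36.9 and 47.4 FPKM in females and at or under 0.00993 FPKM in males. The Y-linked genes Ddx3y, Eif2s3y, Kdm5d and Uty were between 1.69 and 13.6 FPKM in males and had 1 to 3 counts in the 4 female libraries together. Neither sex overlapped the other at any of these genes.

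X-linked genes known to escape silencing were also called, with differing firmness. Ddx3x, an RNA helicase, was at 64.5 ± 1.98 FPKM in females and 52.5 ± 1.251 FPKM in males (n = 4 each), a difference of 0.31 ± 0.04 on the log2 scale (SE; edgeR adjusted p = 0.00147). The translation factor subunit Eif2s3x differed by 0.54 ± 0.05 (adjusted p = 0.000321) and the histone demethylases Kdm5c and Kdm6a by 0.38 ± 0.06 and 0.31 ± 0.05 (adjusted p = 0.0174 and 0.0366, edgeR). The column number of the well plate was also added as a linear term, not as separate groups. With it Ddx3x was still called (edgeR adjusted p = 0.0293), and Eif2s3x (0.266), Kdm5c (0.818) and Kdm6a (0.818) were not. Of 15 alternatives, Eif2s3x was called in 14, Kdm5c in 7 and Kdm6a in 6. The 4 females lay above the 4 males at each of these 4 genes. Nothing beyond the numbering says that the samples came from separate litters or days, so p-values measure only the spread between these samples. In all, 7 of 654 X-linked genes tested were higher in females, 7 of 9 Y-linked genes were higher in males, and 26 of 17702 autosomal genes were called, 13 in each direction.

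Autosomal calls included the kinase Nuak1, at 29.3 ± 2.24 FPKM in females and 22.2 ± 1.204 FPKM in males, and A930011G23Rik, at 4.42 ± 0.0855 and 5.60 ± 0.188 FPKM (n = 4 each). With the column number of the well plate as a linear term, 0 of the 26 autosomal genes were called and 8 genes of the sex chromosomes were. At that setting 1077 genes had an unadjusted p under 0.05. Columns 2 to 3 held the males and columns 3 to 6 the females, so sex and plate column can be told apart only in part. Differences between columns that do not follow their number in a line were not modelled. Without male 1 the counts were 261 and 158, and without any other single mouse 6 to 17 and 9 to 15. None of the 23 cell type and region lists held a gene called between the sexes. With 3 to 21 genes tested per list and 0.217% of all genes tested called, lists this short would rarely hold a call. The absence of calls is thus no result about these lists. The median difference of general neuronal markers was 0.018 on the log2 scale, beside -0.0018 over all genes tested.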

How the data were processed

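RNA-seq of 8 wild-type cortex libraries was used out of 47 in the series. Reads were aligned with STAR 2.7.5c, handled with SAMtools 1.10 and counted with HTSeq 0.12.3 on GRCm38/mm10, per the submitters' processing notes; the annotation release and the counting options are not stated there. The authors deposited raw counts per gene and, in a second table, FPKM values, that is, counts scaled by the authors to library total and gene length. Symbols, biotypes and coordinates were taken from GENCODE M21, which held 48435 of the 48795 gene IDs.

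Levels are means of the deposited FPKM over 8 mice. Paired genes were compared by exact sign permutation (256 patterns) on log2(FPKM + 0.01), with Benjamini-Hochberg adjustment over 40 pairs. The sexes were compared on counts with edgeR 4.0.16 (quasi-likelihood, TMM, filterByExpr), and the fit was tested on simulated data: of 50 genes changed 1.25-fold 54% were called, and of 50 changed 2-fold 86%. Of the 166 genes called in the simulated data, 11 were false calls. The simulated counts held no mouse set apart from the others and no effect of plate column. These rates therefore need not hold for the calls made here. Between-sex alternatives used DESeq2 1.42.0 and limma 3.58.1. A gene at 0 counts can lie up to 3 counts; such limits cover counting error only.

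Named are the 30 most abundant genes and 30 nuclear genes, the 4 highest and the lowest of each list or family, members of receptor, channel, transporter and neuropeptide lists, paired genes, the most and least variable genes, the leading genes between the sexes, Htt and Ccdc82. Other named genes, among them Gfap, Aqp4, Ttr, Tcf7l2, Foxp2, Cd3e, Fos, Npas4, Meg3, Mir212, Mobp and Alas2, were chosen after their values were seen. Some genes that the rule selects are not reported here. The members and lists were chosen with earlier results of these data known.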

Additional observations from a re-analysis of the deposited data

Results flagged for a closer look

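Of 203 results examined for a mouse far from the other 7 (Dixon's criterion for the gap to the nearest mouse over the range), 25 had one, and in 18 of these the mouse was male 1. Chance flags about 1 in 20 groups of values, but several of these genes were named for their high variability or after their values were seen, so the number cannot be set against that rate.

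In male 1 the activity-related transcripts were high: Fos at 75.1 FPKM (median of the 8 mice 29.2), Npas4 at 42.1 (12.04), Btg2 at 45.7 (9.37), Mir132 at 40.5 (10.2), Mir212 at 53.8 (17.8) and their host 1700016P03Rik at 49.8 (22.6). The same mouse was high for Rasgrf2 at 42.1 FPKM (36.8), Slc17a6 at 9.24 (6.90) and Gria3 at 29.6 (27.6). It was low for Nefh at 20.5 FPKM (26.5), Glrb at 54.9 (62.1), Scn1a at 26.6 (32.5) and Scn8a at 35.6 (38.4). The sums of 3 marker lists were also high there, for hippocampus at 47.4 FPKM (36.7), for cerebellum and hindbrain at 42.1 (33.7) and for midbrain monoamine neurons at 14.6 (7.69). Single members carried these sums: Wfs1 was at 24.9 FPKM in male 1 (16.7), Calb1 at 32.4 FPKM, and Nr4a2, which is also an immediate early gene, at 13.3 FPKM (5.90). Male 1 was the highest for 3 of 12, 3 of 11 and 2 of 10 members of these lists, so the lists as a whole were not high.

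In other mice, Actb was at 284 FPKM in female 1 (median 305) and Grin2a at 16.8 in the same mouse (14.1). Vamp2 was at 248 FPKM in female 2 (266), and Vmn2r84 at 1.89 FPKM there (1.13). Gabra6 was at 0.193 FPKM in male 2 (0.0269) and Gbx2 at 0.0319 in male 4 (0.00844), both from few counts. The mitochondrial share was 13.4% of FPKM in male 3 (13.0%).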

How the results depend on the processing

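Presence fell to 8322 genes at 5 FPKM. Over counts in place of FPKM the 100 most abundant genes held 17.7% and the mitochondrial genes 4.53%, and without mitochondrial genes the former held 15.3%. By CPM 19 of the 30 most abundant genes were shared. With a minimum of 5 FPKM, 6 of the 20 most variable genes were shared, and 13 to 18 with 1 mouse left out. In CPM 5 pairs reversed on the log2 scale, of which 3 are given here: Calm2 minus Calm3 was -0.41, Cx3cr1 minus P2ry12 0.26 and Pdgfra minus Pdgfrb 0.59, as the genes differ in length.

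Genes higher in females and in males were 95 and 71 without a filter on low counts, and 143 and 115 with DESeq2. With limma they were 4 and 11 on log2(FPKM + 1) and 4 and 9 on log2(FPKM + 0.1). With plate column as a linear term they were 3 and 5. The replicate number as a block gave 383 and 252. The 4 same-numbered pairs correlated at r = 0.318, 0.0818, 0.0213 and 0.0436, and the differently numbered pairs between -0.188 and 0.0772. The values 0.0213 and 0.0436 thus lay inside the range of the differently numbered pairs. The labels do not say that equal numbers pair the mice, and 4 correlations are too few to decide it. With 1 mouse left out the counts ran from 6 to 261 and from 9 to 158, the highest without male 1. The causes of these differences were not tested. In all 15 alternatives 8 of the 40 genes were called, all on the X or Y chromosome. Genes from 1 to 5 FPKM had a median CV of 9.34%, which limits what could be told between mice there.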
